A study of Mus musculus with 24 samples.

Results

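The genes of the mitochondrial respiratory chain and of the ATP synthase were followed across normal, oncogene-transduced and leukemic blood progenitors of C57BL/6 mice. They were chosen by symbol: complex I subunits and named assembly factors (symbols starting with Nduf), the complex II genes Sdha to Sdhd, complex III (Uqcr), complex IV (Cox4 to Cox8) and the ATP synthase (Atp5). This took 84 of the 12393 genes that have a probe set with a single symbol on the Affymetrix Mouse Genome 430A 2.0 array. These 84 genes have 156 probe sets, and each gene was read from the probe set with its highest mean over the 24 arrays. By role, 6 are core subunits of complex I, 27 are its accessory subunits and 5 its assembly factors. A further 4 belong to complex II, 8 to complex III, 11 to complex IV, 5 to the F1 part of the ATP synthase and 12 to its Fo part and stalk, and 6 are tissue-restricted paralogues of complex IV subunits.

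Normal populations were sorted LSK cells, labelled hematopoietic stem cells (n = 3), and granulocyte monocyte progenitors (GMP, n = 4), neither of them transduced. GMP transduced with an empty GFP vector (n = 3) or with the fusion oncogenes MOZ-TIF2 (n = 4), NUP98-HOXA9 (n = 3) or AML1-ETO (n = 4) were taken as GFP positive cells 36 hours after spinoculation. Leukemic GMP (n = 3) are leukemic stem cells of the MOZ-TIF2 leukemia model that carry the GMP surface phenotype. The labels do not say whether the samples of a group came from separate animals or cultures, so p-values measure the spread between these samples, and they give no age for the animals. The empty-vector control shares transduction and culture with the oncogene groups, so normal GMP and empty-vector GMP differ in both at once.

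Complex I and complex II pass electrons from NADH and succinate to ubiquinone, complex III hands them on to cytochrome c, and complex IV reduces oxygen. Complexes I, III and IV pump protons as they do so, and the ATP synthase lets the protons flow back to make ATP. In the blood system, stem cells are known for a lower reliance on oxidative phosphorylation than the progenitors they give rise to. All 84 genes are nuclear, so the subunits that the mitochondrial genome encodes are no part of the set.

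Values are log2 GCRMA expression estimates, and a linear value of 60 (5.91 on the log2 scale) stands for background, following the study's design text. Of the 84 genes, 78 were over background on all 24 arrays, 5 on some and 1, Cox8b, on none. Median levels of the 81 genes with a mean over background lay between 9.97 and 10.85 on the single arrays. A probe set was tested in a comparison if it was over background on at least 2 arrays of 1 of the groups compared, with limma and Benjamini-Hochberg adjustment over all probe sets tested. The threshold was an adjusted p of 0.05.

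Some arrays stood apart. The 3' minus 5' difference of the Gapdh control probe sets, which rises as RNA is shortened, ran from 2.50 to 4.82 on the log2 scale, with the highest value on leukemic GMP 1, and that array also had the highest actin difference (3.45). The median deviation of all genes from their means was -0.30 on GMP 2, the lowest of the 24 arrays. File names carry 1 of 2 tags or none, whose meaning the labels do not give: all 3 empty-vector arrays and AML1-ETO 1 carry the first tag, and the other 3 AML1-ETO arrays the second. LSK cells had the highest group means of Kit, Meis1, Hlf and Procr, and the summed level of 8 GMP markers was 13.85 to 14.41 in LSK cells and 15.40 to 15.54 in GMP. Mecom, the remaining LSK marker on the array, was under background in every group, with a mean of 3.97 in LSK cells. Among the GMP markers, Cd34 went the other way, at 10.91 in LSK cells and 9.65 in GMP. Other markers did not separate the labels so well: 5 neutrophil markers summed to 14.01 to 14.69 in LSK cells and 14.30 to 14.96 in GMP. Fcgr3, a surface receptor gene of GMP, was 7.42 ± 1.77 (SD, n = 3) in leukemic GMP, with 1 array at 5.58, and 9.32 ± 0.11 (n = 4) in normal GMP.

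Differences between groups were smaller in this set than among expressed genes in general, as a description with no test. The range of the 7 group means had a median of 0.51 on the log2 scale over the 81 genes and of 0.78 over the 6780 genes of the array with a mean over background. It was over 1 for 6 of the 81 genes (7.41%) and for 34.5% of the 6780. The spread within groups was also smaller, with a median SD of 0.19 against 0.27. The 81 genes had a higher median level, 10.48 against 7.87, which was not matched in this comparison. LSK cells were the lowest group for 45 of the 81 genes and AML1-ETO GMP the highest for 27. Lowest and highest groups were not counted over the 6780 genes, so these counts show no trait particular to the set.

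**Figure D1:**
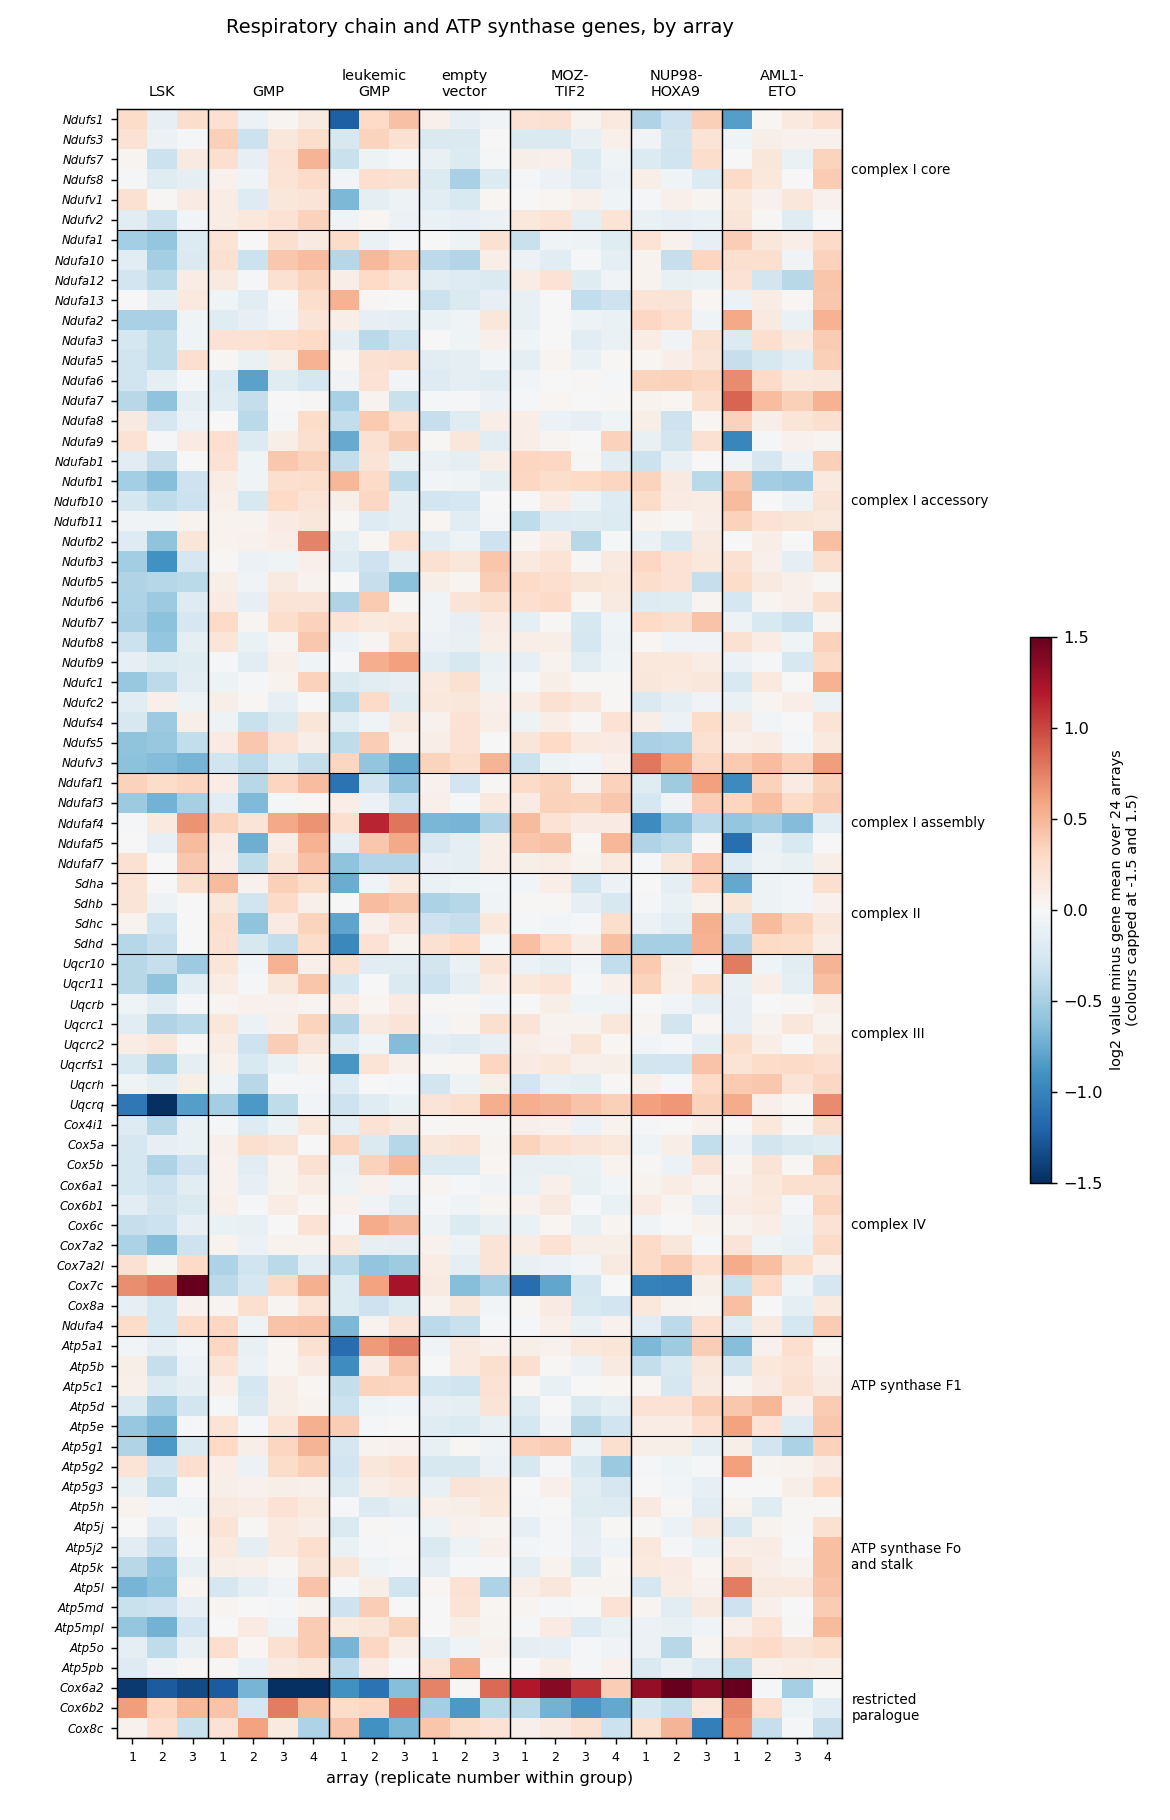
Log2 value of each of the 81 genes with a mean over background (rows, grouped by role) on each of the 24 arrays (columns, grouped by population), minus that gene's mean over all arrays; red is above the mean and blue below. LSK cells are blue across most complex I accessory subunits, and Cox6a2 in the bottom block is blue in the untransduced and leukemic groups and mostly red in the transduced ones.

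LSK cells against GMP. Most genes of the set were lower in LSK cells than in GMP. Of 81 genes tested, 69 (85.2%) had a difference below 0, against 44.8% of all 11452 probe sets tested, and the median difference was -0.25 against 0.06. The differences were small, and 8 genes fell and 1 rose past the threshold; the 9 are 11.1% of the genes, and 15.1% of all probe sets passed, 5.01% lower and 10.1% higher. On the arrays, 31 genes were lower and 2 higher in every LSK sample than in every GMP sample. The same was not counted over all probe sets, so these counts describe the genes and show no excess. In bulk RNA, fewer cells of a type and less RNA per cell cannot be told apart.

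The 8 genes that fell lie in complex I, complex III and the ATP synthase. Atp5g1, one of the genes for the c subunit that forms the rotor ring of the synthase, read 10.17, 9.76 and 10.40 in LSK cells and 10.92, 10.70, 10.94 and 11.13 in GMP. The groups did not overlap, and the mean was 1.76-fold lower in LSK cells (log2 difference -0.81, SE 0.19, adjusted p = 0.020, limma). Ndufs5, an accessory subunit of complex I, read 7.30, 7.34 and 7.53 in LSK cells and 8.03, 8.30, 8.12 and 8.00 in GMP. All LSK arrays lay under all GMP arrays, a 1.65-fold difference (-0.72, SE 0.15, adjusted p = 0.012, limma). Ndufb7, another accessory subunit, read 10.57, 10.45 and 10.81 against 11.35, 11.10, 11.32 and 11.40. It was 1.60-fold lower without overlap (-0.68, SE 0.16, adjusted p = 0.019, limma). Atp5mpl, a small subunit of the synthase's membrane part, was 1.55-fold lower (9.98 ± 0.21, SD, n = 3, against 10.62 ± 0.19, n = 4; limma adjusted p = 0.036). Ndufb1, a further complex I accessory subunit, was also 1.55-fold lower (6.19 ± 0.16 against 6.82 ± 0.15; limma adjusted p = 0.026).

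Uqcr10 of complex III (-0.62, SE 0.17), Ndufa1 (-0.57, SE 0.16) and Ndufb5 (-0.49, SE 0.13) of complex I also fell and are named after their values were seen. Cox7a2l, which helps join complex III to complex IV in supercomplexes, was the gene that rose. It read 11.41, 11.22 and 11.47 in LSK cells and 10.72, 10.89, 10.78 and 11.02 in GMP, so that every LSK array lay above every GMP array (0.51, SE 0.15, adjusted p = 0.048, limma). Its other 2 probe sets differed by 0.48 to 0.54 in the same direction. Of the 9 genes, 4 had another probe set that was tested, and in all 4 every such probe set lay on the same side, with adjusted p-values from 0.058 to 0.077.

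By role, the median difference was -0.40 over the 27 accessory subunits of complex I, of which 25 were below 0 and 5 fell, and -0.16 over its 6 core subunits. It was -0.35 over complex III, -0.27 over complex IV, -0.27 over the Fo part and stalk, where all 12 were below 0, and -0.19 over the F1 part. Over complex II it was -0.12, with all 4 below 0, and over the 3 restricted paralogues tested it was -0.09. The 5 complex I assembly factors had a median of 0.11, with 3 above 0. No difference between roles was tested. The largest value above 0 was Cox7c of complex IV at 1.20 (SE 0.39), on a probe set near background, and it missed the threshold.

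**Figure D2:**
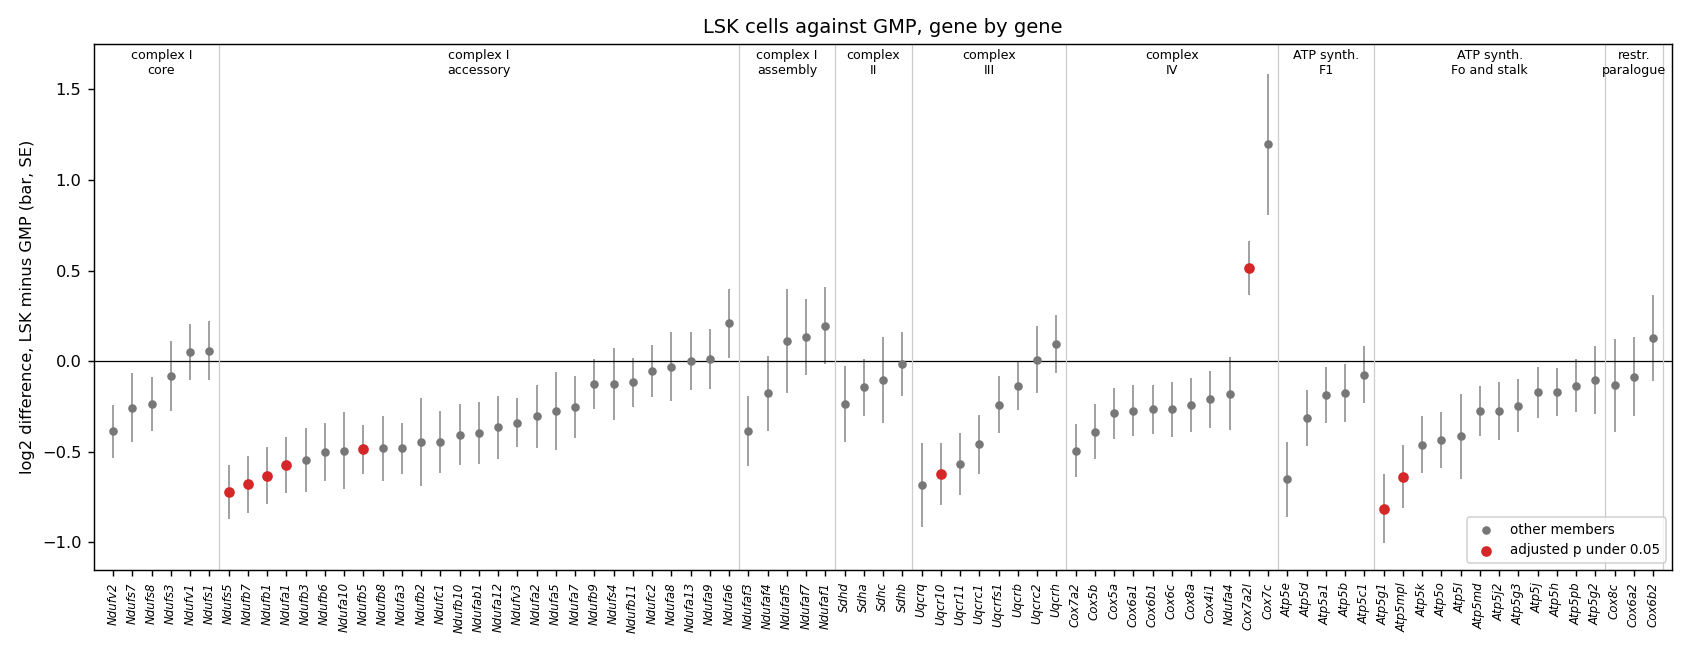
Log2 difference of LSK cells minus GMP (points) with its standard error (bars) for the 81 tested genes, ordered by role and by size; red points passed an adjusted p of 0.05. Of the 81 points, 69 lie below 0, among them 25 of the 27 complex I accessory subunits and all 12 of the Fo part and stalk.

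The direction of the LSK difference was kept more firmly than its calls. Leaving out any 1 array left 63 to 74 of the genes below 0, with medians from -0.33 to -0.19. The count called was 0 without LSK 1 or without LSK 2, 1 without GMP 1 or without GMP 3, and 24 without GMP 2, which is the GMP array with the highest Gapdh difference (4.33, against 3.40 to 4.12 on the other GMP arrays). On the LSK arrays this difference was 4.05 to 4.51, and its part in the result was not tested. Within the first tag, 4 genes were called, all lower. The share of all probe sets called in such changed fits, here and below, is not given. These counts therefore do not single out this set.

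Promoter sequence was available for 70 of the 84 genes from RefSeq (GRCm38.p6), as windows of 250 bases before to 50 after each annotated start. Letters of 4 motifs of factors known to act on nuclear genes for mitochondria were searched on both strands. NRF1 letters (GCGCA and GCGC, 1 base apart) were in the windows of 16 genes (22.9%), against 5.19% of all 27025 genes with a window and 13.5% of the 5613 that have a mean over background on the array. ETS letters (CCGGAAG), as bound by GABPA, were in 18 (25.7%), against 9.93% and 23.4%. YY1 letters (AAGATGG) were in 10 (14.3%), against 7.28% and 9.69%, and E box letters (CACGTG), as bound by MYC, in 6 (8.57%), against 8.09% and 12.9%. At least 1 of the 4 was found for 42 of the 70. These are matches of letters, not shown sites.

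The windows of 3 genes that were lower in LSK cells are shown because each holds a different one of these motifs. They were picked for a motif and do not stand for all genes that fell. Ndufb1, Uqcr10, Ndufa1 and Ndufb5, which also fell, were not among the genes found with any of these motifs. Atp5mpl, which fell too, had no promoter sequence. The 150 bases before the start of Cox7a2l, which rose, hold none of these motifs. A link between these motifs and the LSK difference was not tested. Each window shown is the 150 bases just before the annotated start in the gene's direction, 5' to 3', with the motif in capitals. The Ndufs5 window (chr4:123718187-123718336, minus strand) has NRF1 letters from base -98 to -89, the Ndufb7 window (chr8:83566608-83566757, plus strand) has ETS letters from -20 to -14, and the Atp5g1 window (chr11:96075632-96075781, minus strand) has E box letters from -44 to -39, counted back from the start.
Ndufs5: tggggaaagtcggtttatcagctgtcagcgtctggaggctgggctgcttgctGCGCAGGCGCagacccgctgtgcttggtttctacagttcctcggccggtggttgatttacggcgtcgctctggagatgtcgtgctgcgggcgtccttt
Ndufb7: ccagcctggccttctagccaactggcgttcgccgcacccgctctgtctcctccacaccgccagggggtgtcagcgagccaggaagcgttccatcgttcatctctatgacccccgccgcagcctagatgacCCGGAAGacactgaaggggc
Atp5g1: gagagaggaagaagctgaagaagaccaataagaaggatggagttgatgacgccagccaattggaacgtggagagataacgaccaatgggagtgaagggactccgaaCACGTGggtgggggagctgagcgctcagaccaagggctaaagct

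Empty-vector GMP against normal GMP. Transduced and cultured GMP differed from freshly sorted GMP in 5 genes of 81 tested (6.17%), where 15.7% of all probe sets passed. Cox6a2, Uqcrq and Ndufv3 rose, and Ndufaf4 and Cox6b2 fell. The median over the set was -0.11, against -0.04 over all probe sets, and 56 genes were below 0.

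Cox6a2 is the form of a small complex IV subunit known from heart and skeletal muscle. It read 6.21, 6.76, 5.94 and 5.91 in normal GMP and 8.21, 7.47 and 8.31 in empty-vector GMP. All empty-vector arrays lay above all normal ones, with a 3.46-fold difference of the means (1.79, SE 0.27, adjusted p = 0.0025, limma). In LSK cells it read 6.03, 6.21 and 6.12 and in leukemic GMP 6.56, 6.35 and 6.82, close to background like normal GMP. MOZ-TIF2 GMP read 8.66, 8.82, 8.55 and 7.83, NUP98-HOXA9 GMP 8.78, 9.86 and 8.83, and AML1-ETO GMP 8.98, 7.44, 6.96 and 7.46. So every transduced array was above every array of the 3 sorted groups, and among the AML1-ETO arrays the 1 that carries the first tag was the high one. One probe set reads this gene.

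Uqcrq, a small subunit of complex III, read 9.66, 9.30, 9.79 and 10.12 in normal GMP and 10.36, 10.41 and 10.71 in empty-vector GMP. The groups did not overlap (1.71-fold; 0.78, SE 0.21, adjusted p = 0.033, limma). Of its 3 other probe sets, only 1 passed the filter, and it differed by -0.03 (limma adjusted p = 0.95), so the rise rests on 1 of 4 probe sets. Ndufv3, an accessory subunit of the NADH-binding part of complex I, read 10.37, 10.26, 10.45 and 10.30 in normal GMP and 11.00, 10.92 and 11.17 in empty-vector GMP. It was 1.60-fold higher without overlap (0.68, SE 0.14, adjusted p = 0.011, limma). Cox6b2, a complex IV form known from testis, fell from 6.37 ± 0.44 (SD, n = 4) to 5.42 ± 0.24 (n = 3), which is under background, so that it was at least 1.38-fold lower (limma adjusted p = 0.029). It passed the filter only through normal GMP, so its place among the 5 supports nothing about the set.

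Ndufaf4, an assembly factor that helps build complex I, had the largest fall in this comparison. It read 8.08, 7.93, 8.31 and 8.41 in normal GMP and 7.05, 7.04 and 7.29 in empty-vector GMP. The groups lay apart by more than their own ranges, and the mean was 2.08-fold lower after transduction and culture (-1.06, SE 0.16, adjusted p = 0.0032, limma). Its second probe set fell by 1.22 on the log2 scale (limma adjusted p = 0.022). All 7 fits that leave out 1 array called it too. Without GMP 2, 18 genes of the set were called in this comparison in place of 5, without GMP 1, GMP 3 or empty vector 2 there were 3, and without empty vector 1 or 3 there were 2.

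**Figure D3:**
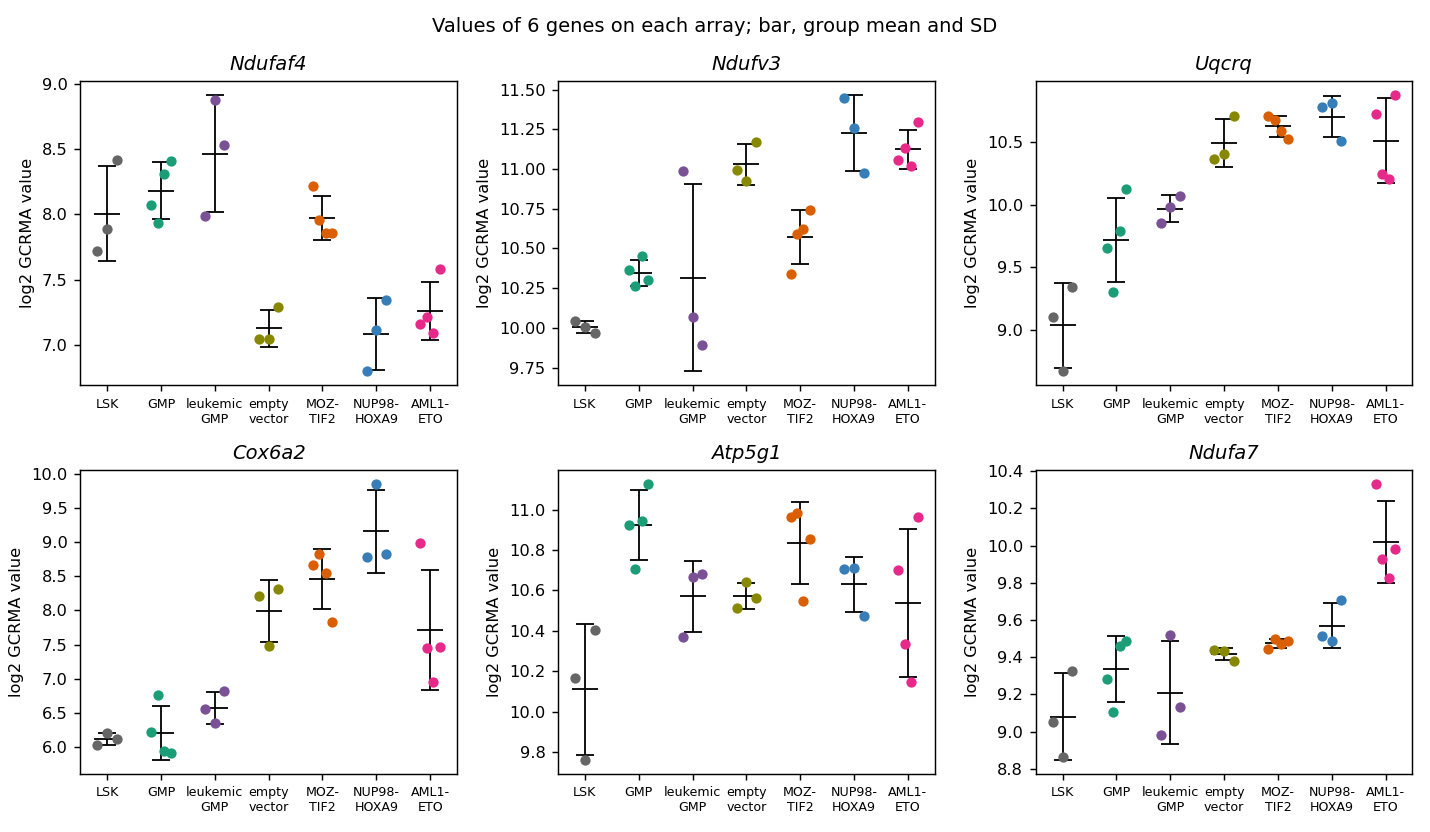
Log2 GCRMA values of 6 genes on each of the 24 arrays (points) by population, with the group mean and SD (bars). Ndufaf4 lies between 6.80 and 7.58 in the empty-vector, NUP98-HOXA9 and AML1-ETO groups and at 7.72 or more in the other 4, and Cox6a2 is higher in all 4 transduced groups than in the 3 sorted ones.

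Each oncogene against the empty vector. MOZ-TIF2 GMP differed from empty-vector GMP in 3 of 79 genes tested (3.80%), where 11.8% of all probe sets passed. Ndufaf4 and Ndufb1 rose and Ndufv3 fell. The median over the set was 0.05, against 0.07 over all probe sets. Ndufaf4 read 8.22, 7.95, 7.86 and 7.86 in MOZ-TIF2 GMP, all above the 3 empty-vector arrays given above and inside or just under the range of normal GMP. Neutrophil markers, given with the other lists, were lower on the same arrays. The rise over the vector was 1.80-fold (0.85, SE 0.13, adjusted p = 0.0085, limma), and 1.21 on the log2 scale at its second probe set. Ndufv3 moved the other way, with 10.34, 10.59, 10.62 and 10.74, all under the empty-vector arrays (1.37-fold lower; -0.46, SE 0.13, adjusted p = 0.045, limma). Ndufb1 read 6.98 ± 0.02 (SD, n = 4) against 6.60 ± 0.06 (n = 3), a 1.31-fold rise (limma adjusted p = 0.035). Ndufaf4 was called in all 7 fits that leave out 1 array and Ndufb1 and Ndufv3 in 1 each: the count was 3 without MOZ-TIF2 3, 2 without MOZ-TIF2 4 and 1 without any other array. As a comparison with the same vector samples, the fall of Ndufaf4 and the rise of Ndufv3 from normal GMP to the vector are not independent of these differences.

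The Ndufaf4 window is shown because this gene moved in 4 of the 10 comparisons, and it holds NRF1 letters (capitals) from base -113 to -104 before the start. It is the 150 bases at chr4:24897933-24898082, plus strand, 5' to 3', from the same RefSeq table. Ndufv3 was called in the same 4 comparisons, and the 150 bases before its start hold none of the 4 motifs. A link between these letters and the differences was not tested.
Ndufaf4: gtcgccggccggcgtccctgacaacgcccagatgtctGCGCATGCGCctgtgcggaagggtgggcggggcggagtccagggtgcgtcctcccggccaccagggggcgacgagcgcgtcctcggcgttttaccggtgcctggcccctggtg

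NUP98-HOXA9 GMP differed from empty-vector GMP in none of 79 genes by limma, where 0.2% of all probe sets passed; 8 genes had an unadjusted p under 0.05, and the methods' own test, which assumes unequal variances, called 0 as well. The median was 0.08 against 0.05. The gene with the largest difference was Cox6a2 at 1.16 (SE 0.32, adjusted p = 0.29, limma). Without NUP98-HOXA9 3, 2 genes were called.

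AML1-ETO GMP differed in 2 of 81 genes (2.47%), where 11% of all probe sets passed, and 1 of the 2, Cox7a1, had passed the filter only through AML1-ETO GMP. The median over the set was 0.15, against 0.08, with 56 genes above 0. Ndufa7, a complex I accessory subunit, read 10.33, 9.93, 9.83 and 9.98 in AML1-ETO GMP and 9.44, 9.43 and 9.38 in empty-vector GMP. It was 1.52-fold higher without overlap (0.60, SE 0.15, adjusted p = 0.037, limma), and its 4 other probe sets were all higher too, by 0.45 to 0.87. Only 2 of the 7 fits that leave out 1 array called Ndufa7, with limma adjusted p-values up to 0.14. With quantile normalization it missed the threshold (limma adjusted p = 0.075). Cox7a1, a complex IV form known from muscle and brown fat, was 5.88 ± 0.17 (SD, n = 4) in AML1-ETO GMP and 4.15 ± 0.39 (n = 3) in empty-vector GMP. Both means are under background, and only AML1-ETO 3 and AML1-ETO 4 read over it, so neither a size nor a p-value is given for it here or below. The count was 7 without AML1-ETO 1 and 1 without any other array. Cox7a1 is part of that count in all 5 of these fits that tested it. The shared tag of AML1-ETO 1 and the vector arrays cannot be told apart from that array itself. Markers moved with this comparison too: 4 of 8 GMP markers passed the threshold, 3 of them lower, among them Cebpa, a transcription factor gene of GMP, at 7.64 ± 0.47 (SD, n = 4) against 9.08 ± 0.18 (n = 3). Of 4 macrophage markers tested, 2 were higher, and Pf4, a megakaryocyte gene, was 11.57 ± 0.62 against 8.45 ± 0.52. The other megakaryocyte markers did not follow it. Itga2b was 6.35 ± 0.59 against 6.22 ± 0.17 and was not called. Gp9 (5.40 against 5.73) and Gp1bb (5.02 against 5.41) had means under background. The part of other cell types in the result was not tested.

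With the 11 oncogene arrays taken as 1 class, none of 82 genes differed from the vector by limma, where 0 percent of all probe sets passed; 4 had an unadjusted p under 0.05, and the methods' own test called 2, both higher. The median difference was 0.10 against 0.08 over all probe sets. Of the 82 genes, 2 were higher on every oncogene array than on every vector array, and none was lower on all. No such count was taken over all probe sets, so it is a description only.

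**Figure D4:**
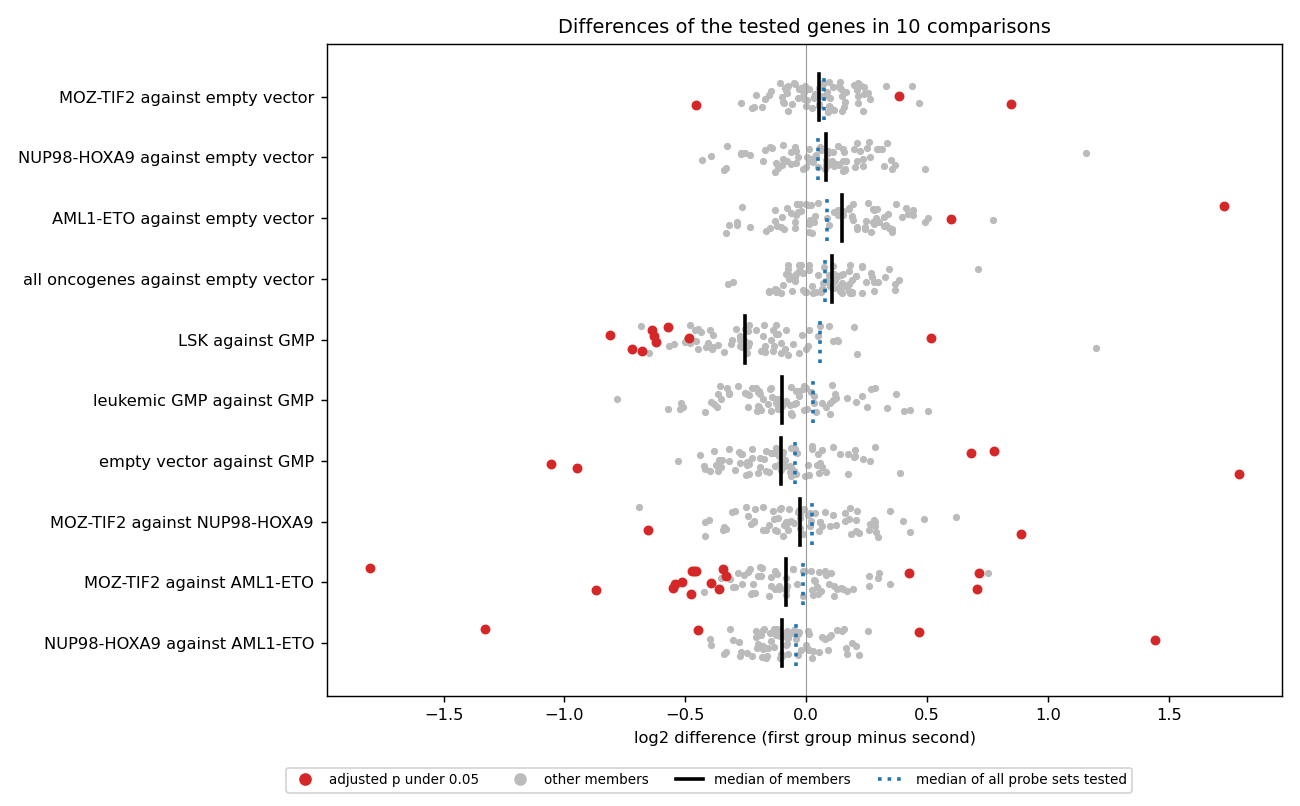
Log2 differences (first group minus second) of the tested genes in 10 comparisons, 1 point per gene; red points passed an adjusted p of 0.05, black lines give the median of the set and dotted blue lines the median of all probe sets tested. The black line lies at -0.25 for LSK cells against GMP and between -0.11 and 0.15 in the other 9 comparisons.

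Oncogenes against each other. The contrasts between oncogenes were taken from 1 fit to the 14 transduced arrays. MOZ-TIF2 and AML1-ETO GMP differed in 16 of 81 genes (19.8%), 3 higher and 13 lower in MOZ-TIF2 GMP, where 28.5% of all probe sets passed, 12.3% higher and 16.2% lower. Of the 13, Cox7a1 and Cox6b2 had passed the filter only through AML1-ETO GMP, so they support nothing about the set. Markers differed as well: 3 of 5 neutrophil markers were lower in MOZ-TIF2 GMP, and 7 of 8 GMP markers passed the threshold, 5 higher and 2 lower. Their part in the result was not tested. Of the 3 higher genes, 2 are assembly factors of complex I. Ndufaf4 was 7.16, 7.21, 7.09 and 7.58 in AML1-ETO GMP, all under the MOZ-TIF2 arrays (1.64-fold; 0.71, SE 0.15, adjusted p = 0.0027, limma). Ndufaf5, an assembly factor that modifies a core subunit of complex I, read 7.24, 7.25, 6.84 and 7.31 in MOZ-TIF2 GMP and 5.69, 6.72, 6.59 and 6.82 in AML1-ETO GMP (1.63-fold higher, SE 0.22 on the log2 scale, adjusted p = 0.024, limma), with AML1-ETO 1 lowest. Cox5a, a nuclear-encoded subunit of complex IV, was 12.85 ± 0.08 against 12.43 ± 0.08 (SD, n = 4 each; limma adjusted p = 0.014), and both its other probe sets were called in the same direction.

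The 13 lower genes were spread over complex I (5), complex III (1), complex IV (1), the ATP synthase (4) and the restricted paralogues (2). Ndufa7 read 9.44, 9.50, 9.47 and 9.49 in MOZ-TIF2 GMP, all under the AML1-ETO arrays (1.46-fold; -0.54, SE 0.12, adjusted p = 0.0034, limma), and all 4 of its other probe sets were called in that direction. Ndufv3 was lower in MOZ-TIF2 GMP, at 10.57 ± 0.17 against 11.12 ± 0.12 (SD, n = 4 each; 1.47-fold, limma adjusted p = 0.0062). Atp5d, the delta subunit of the synthase's central stalk, was 11.69 ± 0.09 against 12.17 ± 0.18 (1.39-fold lower, limma adjusted p = 0.0095). Cox6b2 was at least 1.22-fold lower (5.32 ± 0.20 against 6.19 ± 0.39, limma adjusted p = 0.0037), and both means of Cox7a1 were under background. The median over the set was -0.08, against -0.01 over all probe sets. Leaving out any 1 array of the fit called 11 to 16 genes.

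MOZ-TIF2 and NUP98-HOXA9 GMP differed in 2 of 79 genes (2.53%), where 7.52% of all probe sets passed, and 2 of 5 neutrophil markers were also lower in MOZ-TIF2 GMP. NUP98-HOXA9 GMP read 6.80, 7.11 and 7.34 for Ndufaf4, all under the MOZ-TIF2 arrays (1.85-fold; 0.89, SE 0.16, adjusted p = 0.0054, limma). For Ndufv3 it read 11.45, 11.26 and 10.97, all above them (1.57-fold; -0.65, SE 0.14, adjusted p = 0.014, limma). All 14 fits that leave out 1 array kept the Ndufaf4 call and 12 the Ndufv3 call; the count was 6 without NUP98-HOXA9 3, 5 without AML1-ETO 1, and 1 without MOZ-TIF2 1 or NUP98-HOXA9 1. On the first tag's arrays alone, 13 genes were called.

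NUP98-HOXA9 and AML1-ETO GMP differed in 4 of 81 genes (4.94%), where 7.23% of all probe sets passed, and 1 of the 4, Cox7a1, had passed the filter only through AML1-ETO GMP, with both means under background. Ndufb7 was higher in NUP98-HOXA9 GMP, at 11.35, 11.29 and 11.48 against 10.98, 10.83, 10.73 and 11.10 (1.38-fold; 0.47, SE 0.12, adjusted p = 0.036, limma). Ndufa7 was 1.36-fold lower (9.57 ± 0.12, SD, n = 3, against 10.02 ± 0.22, n = 4; limma adjusted p = 0.045). Of the 14 fits that leave out 1 array, 7 called Ndufb7, 2 called Ndufa7 and 2 called Cox6a2. Cox6a2 was 1.44 higher on the log2 scale (limma adjusted p = 0.047), but AML1-ETO 1 overlapped NUP98-HOXA9. On the first tag's arrays, with AML1-ETO 1 as the sole array of its group, the Cox6a2 difference was 0.34. Cox6a2 missed the threshold with quantile normalization (limma adjusted p = 0.055) and with tag as a model term (limma adjusted p = 0.29). The count was 6 without NUP98-HOXA9 3, 3 without AML1-ETO 1 or MOZ-TIF2 4, 2 without MOZ-TIF2 2, MOZ-TIF2 3, empty vector 2 or empty vector 3, and 1 without any of the other 7 arrays.

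Leukemic GMP against normal GMP. None of 81 genes differed by limma, where 4.86% of all probe sets passed; 3 had an unadjusted p under 0.05, and the methods' own test called 0. Of the 81, 57 were below 0, and the median was -0.10 against 0.03. Without leukemic GMP 1 the median was -0.0015, and 42 of the 81 were below 0. The median deviation of the set from its mean over all arrays was -0.19 on that array and 0.06 and -0.0041 on the other 2. On leukemic GMP 1 the summed level of 5 neutrophil markers was 15.54 on the log2 scale, and the group's lowest was 11.12; leukemic GMP 1 also had the highest Gapdh and actin differences given above, and their part in the result was not tested. Without leukemic GMP 1 and GMP 2 together, a choice made after seeing the data, 5 genes were called, 1 higher and 4 lower. Ndufaf4 read 7.98, 8.88 and 8.54 in leukemic GMP, overlapping normal GMP.

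Complex II is the only one of the complexes with no subunit from the mitochondrial genome, and its 4 genes also serve the citric acid cycle. None of the 4 passed the threshold in any of the 10 comparisons. The largest difference was that of Sdha between leukemic and normal GMP, -0.51 (SE 0.25, adjusted p = 0.34, limma), where leukemic GMP 1 read 9.60 and the other 2 read 10.28 and 10.48. Sdhb differed by 0.24 to 0.35 between each oncogene and the vector, with adjusted p-values from 0.17 to 0.52 by limma.

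The mature c subunit of the ATP synthase is encoded by 3 genes that differ in their import sequences. Only Atp5g1 fell in LSK cells; Atp5g2 differed by -0.10 (SE 0.19) and Atp5g3 by -0.25 (SE 0.15), and differences between the 3 genes were not tested. Atp5g2 was 1.39-fold lower in MOZ-TIF2 than in AML1-ETO GMP (-0.47, SE 0.14, adjusted p = 0.023, limma), with AML1-ETO 1 at 11.89 above the other 3 at 11.31 to 11.39. Atp5g3 passed the threshold in no comparison, and its group means spanned 0.26.

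The restricted paralogues were mostly near background. Cox8b (mean 4.15) and Cox4i2, the form of complex IV subunit 4 known from lung (mean 5.44), were tested in no comparison. Cox8c, a form known from testis, read 6.17 to 7.85 over the 24 arrays and passed no threshold.

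Other genes of energy metabolism gave the setting of these differences. In LSK cells against GMP, 7 of 74 mitochondrial ribosomal protein genes fell and 1 rose (10.8%, where 15.1% of all probe sets passed), with a median of -0.31, and 63 were below 0. None of 16 citric acid cycle and pyruvate dehydrogenase genes changed by limma there, with a median of -0.24. Among 18 glycolysis genes, 3 rose and 3 fell (33.3%): the glucose transporter gene Slc2a3 rose by 2.33 on the log2 scale (limma adjusted p = 0.0019), and the glycolytic enzyme gene Pgam1 fell, by -1.23 (limma adjusted p = 0.0025). Aldoc, among the 3 that rose, had passed the filter only through LSK cells, so it supports nothing about the list. Tfam, which packages mitochondrial DNA, was 0.72 higher in LSK cells (limma adjusted p = 0.042).

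In empty-vector against normal GMP, 13 of 19 glycolysis genes rose and 1 fell (73.7%, where 15.7% of all probe sets passed), with a median of 0.98, while the respiratory set had a median of -0.11. The 19 include Slc16a3 and Aldoc, with means of 5.45 and 5.28 in normal GMP. Both passed the filter only through empty-vector GMP, so they support nothing about the list. Slc2a1, a glucose transporter gene, was 3.16 higher (limma adjusted p = 2.3e-05), and Aldoa, an aldolase gene, 1.85 higher (limma adjusted p = 9.9e-05). Of 74 mitochondrial ribosomal protein genes, 4 fell and none rose (5.41%, under that share), and 67 were below 0, as were 54.7% of all probe sets. Among regulators, Myc read 9.70, 9.18, 9.96 and 9.86 in normal GMP and 8.87, 8.32 and 8.75 in empty-vector GMP (-1.03, SE 0.22, adjusted p = 0.014, limma). Pprc1, a coactivator of the PGC-1 family, differed by -1.26 (limma adjusted p = 0.012). Mycn was 6.96 ± 0.59 (SD, n = 4) in normal GMP and 13.41 ± 0.27 (n = 3) in empty-vector GMP (limma adjusted p = 3.6e-06). Markers of macrophages moved with this comparison: the summed level of 6 was 11.51 to 12.12 in normal GMP and 12.74 to 12.91 in empty-vector GMP. All 4 that passed the filter were called higher: Adgre1 (6.21 to 8.06), Cd68 (7.97 to 9.53), C1qb (6.59 to 7.92) and Csf1r (11.62 to 12.49), as group means. C1qa and Mrc1, which did not pass it, had means of 5.64 and 4.43 in empty-vector GMP, with 1 array of C1qa over background at 6.06. The part of such cells in the result was not tested.

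MOZ-TIF2 GMP had 14 of 74 mitochondrial ribosomal protein genes higher than empty-vector GMP and none lower (18.9%, where 11.8% of all probe sets passed), with a median of 0.22. Mrps6 was 0.94 higher (limma adjusted p = 0.013) and Mrpl12 0.76 higher (limma adjusted p = 0.016). Of 19 glycolysis genes, 4 fell and 1 rose, among them the aldolase gene Aldoc at -1.34 (limma adjusted p = 0.028). Myc read 9.92, 9.55, 9.53 and 9.76 in MOZ-TIF2 GMP, above all vector arrays (1.05, SE 0.16, adjusted p = 0.0084, limma), and Pprc1 was 0.85 higher (limma adjusted p = 0.023). Mycn went the other way, at 10.57 ± 0.60 (SD, n = 4) against 13.41 ± 0.27 (n = 3), a 7.12-fold fall (limma adjusted p = 0.0030). Of 27 electron carrier genes and assembly factors outside the set, 3 rose (11.1%, near the share of all probe sets): Sco2 and Lrpprc, both needed for complex IV, and Uqcc1, needed for complex III. The mitochondrial chaperone gene Hspa9 was 0.67 higher (limma adjusted p = 0.023), and the import pore gene Tomm40 0.58 higher (limma adjusted p = 0.016). Neutrophil markers moved with this comparison: all 5 were below 0, with a median of -1.02, and S100a9 (11.18 ± 0.84 against 13.00 ± 0.19) and S100a8 (12.69 ± 0.64 against 13.71 ± 0.14) were called lower. Their part in these results and in those of the respiratory genes was not tested.

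**Figure D5:**
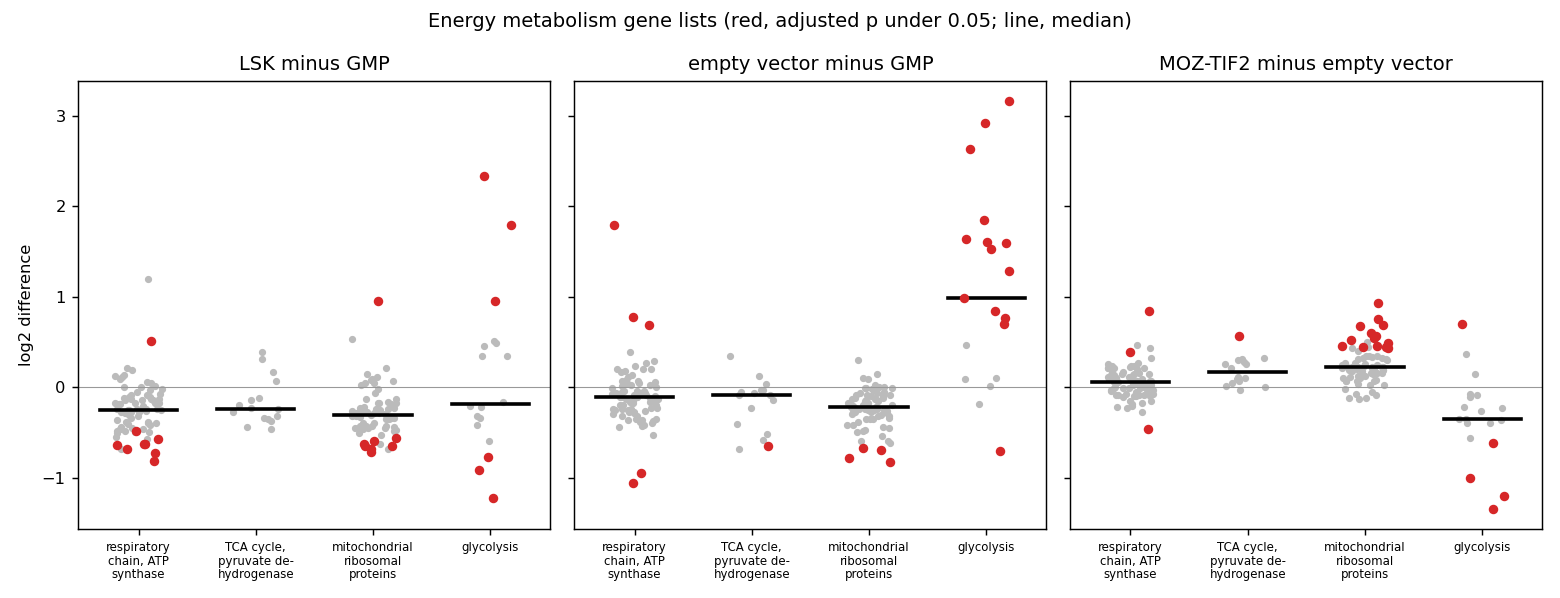
Log2 differences of the tested genes of the respiratory set and of 3 other lists in 3 comparisons; red points passed an adjusted p of 0.05 and lines give medians. Glycolysis genes have a median of 0.98 in empty-vector against normal GMP, and the respiratory set lies at -0.25, -0.11 and 0.05 in the 3 panels.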

How the data were processed

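Gene expression was measured on 24 arrays in 7 groups. The deposited values are log2 GCRMA (version 2.4.1) estimates that the authors made from scanner files of MAS5, per the submitters' processing notes and the design text, which also says that outlier arrays had been removed. GCRMA normalization brings arrays to a similar scale, so a shift in RNA shared by all genes cannot be read from these values. The arrays were not made equal: their medians ran from 5.63 to 5.76, and quantile normalization moved the calls, as given at the end. Symbols came from the platform annotation; 691 of 22690 probe sets have several symbols and 1555 none, and 8 with several that match the symbols chosen were not used. Fits used limma 3.58.1 (lmFit, eBayes) in R 4.3.3 on probe sets over a linear value of 60 on at least 2 arrays of 1 group, with Benjamini-Hochberg adjustment. In simulated data, log2 changes of 1 were recovered in 45% (NUP98-HOXA9 against vector) to 80.6% (all oncogenes against vector) of cases. False calls reached 11.2% of calls (NUP98-HOXA9 against AML1-ETO). Smaller changes, like most differences here, were not simulated, so a gene not called is not shown to be unchanged. Two-class fits used the groups compared, and oncogene pairs the 14 transduced arrays. Named genes are, per comparison, the 5 largest changes each way past the threshold without overlap between groups, complex II, the c subunit genes and restricted paralogues, and up to 4 genes per list. Genes and lists were chosen with earlier results of these data known. The number of arrays limits the precision.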

Additional observations from a re-analysis of the deposited data

Results flagged for a closer look

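Of 75 groups of 4 arrays looked at among the named genes, 4 held an array far from the other 3, where chance alone flags about 1 in 20. AML1-ETO 1 was the highest of its group for Atp5g2 (11.89, next 11.39) and for Cox8b (4.85, next 3.95, both under background). MOZ-TIF2 3 was the lowest for Ndufaf5 (6.84, next 7.24). MOZ-TIF2 4 was the highest for Sdhc (8.79, next 8.51).

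By the limma contrast of the 2 oncogene groups, the genes below differed between oncogenes. They are those chosen by the naming rule, and 7 further genes were called lower between MOZ-TIF2 and AML1-ETO GMP. Cox7a1 and Cox6b2, also chosen by that rule, are set apart at the end. Between MOZ-TIF2 and NUP98-HOXA9 GMP, Ndufaf4 differed by 0.89 and Ndufv3 by -0.65. Between MOZ-TIF2 and AML1-ETO GMP, the values above 0 were 0.71 for Ndufaf4, 0.71 for Ndufaf5 and 0.43 for Cox5a. Those below 0 were -0.48 for Atp5d, -0.47 for Atp5g2, -0.87 for Cox6b2, -1.80 for Cox7a1, -0.54 for Ndufa7 and -0.55 for Ndufv3. Between NUP98-HOXA9 and AML1-ETO GMP, Cox6a2 differed by 1.44, Ndufb7 by 0.47, Ndufa7 by -0.45 and Cox7a1 by -1.33. Cox7a1 was called lower in MOZ-TIF2 and in NUP98-HOXA9 GMP than in AML1-ETO GMP, and Cox6b2 in MOZ-TIF2 GMP. Both passed the filter only through AML1-ETO GMP. Their calls are fitted against groups under background and support no fitted size and no difference in effect. Cox6b2 was at least 1.22-fold lower in MOZ-TIF2 GMP, and no fold is given for Cox7a1.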

How the results depend on the processing

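Counts of genes called are given in the order named. With quantile normalization they were 0 (AML1-ETO against vector), 25 (LSK), 2 (leukemic GMP), 13 (empty vector against GMP), 4 (MOZ-TIF2 against NUP98-HOXA9) and 1 (NUP98-HOXA9 against AML1-ETO). With file-name tag as a model term they were 1 (MOZ-TIF2 against vector), 6 (AML1-ETO), 29 (LSK), 12 (leukemic GMP), 9 (empty vector) and 4 (MOZ-TIF2 against NUP98-HOXA9). On the first tag alone they were 2 (NUP98-HOXA9 against vector), 12 (AML1-ETO, where that group is 1 array assumed to vary like the others, so the 12 describe that array), 4 (LSK) and 13 (MOZ-TIF2 against NUP98-HOXA9). The methods' own unequal-variance test gave 0 (MOZ-TIF2), 0 (AML1-ETO), 2 (all oncogenes), 2 (LSK) and 1 (empty vector). One fit over all arrays gave 1 (MOZ-TIF2), 6 (AML1-ETO), 22 (LSK) and 3 (leukemic GMP), and no filter on low values 4 (LSK), 1 (leukemic GMP) and 1 (NUP98-HOXA9 against AML1-ETO). Leaving out GMP 2 and leukemic GMP 1 gave 24 (LSK), 5 (leukemic GMP) and 18 (empty vector), a setting chosen after seeing the data. The other alternatives kept the counts within 1.5 times, and the cause of these moves was not tested. A replicate block gave 1 (AML1-ETO against vector) and 2 (NUP98-HOXA9 against AML1-ETO) and moved no other count by more than 1.5 times; same-numbered arrays correlated between -0.44 and 0.49, and in none of 9 comparisons were all pairs over 0.1, so the numbers were not taken as pairs. Leaving out 1 array gave 1 to 3 for MOZ-TIF2, 0 to 2 for NUP98-HOXA9 and 1 to 7 for AML1-ETO against the vector, 0 for all oncogenes, 0 to 24 for LSK, 0 for leukemic GMP and 2 to 18 for the empty vector; between oncogenes it gave 1 to 6, 11 to 16 and 1 to 6. Without probe sets ending in _s_at or _x_at, Uqcrq in empty vector against GMP was -0.026, and Cox8c between MOZ-TIF2 and AML1-ETO was -0.50 on the first tag, with the same single AML1-ETO array. Quantile normalization lowered the median of all probe sets by over 0.1 only for AML1-ETO against the vector (-0.11). It moved the share of higher calls among all probe sets from 75.2% to 57.9% for MOZ-TIF2, 79.8% to 59.7% for AML1-ETO, 66.9% to 50.2% for LSK, 70.1% to 59.8% for leukemic GMP and 36.2% to 47.6% for NUP98-HOXA9 against AML1-ETO. The number of all probe sets called moved too, from 1734 to 2795 for LSK and 1782 to 2817 for the empty vector. It went from 556 to 692 for leukemic GMP, 840 to 1111 for MOZ-TIF2 against NUP98-HOXA9 and 823 to 981 for NUP98-HOXA9 against AML1-ETO. For AML1-ETO against the vector it fell from 1249 to 1143. In the other settings the number over all probe sets is not given. Genes near background (Cox7a1, Cox6b2, Cox7c) are limited by signal.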
